A study of Caenorhabditis elegans with 46 samples.

Results

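The DRM complex, the *C. elegans* counterpart of mammalian DREAM, was mapped by ChIP-seq in late embryos, and 307 of its 1418 wild-type binding sites lay outside promoters. Each site was a 500 bp region, and its class came from the study's annotation of where the site fell relative to RefSeq genes. A site was kept here when that annotation placed it outside every promoter. Classes were within an intron (Intron, 148 sites), within 1000 bp of a transcription termination site (TTS, 48 sites) and between genes (Intergenic, 111 sites). Promoters were taken to reach upstream of a transcription start site by 1000 bp and downstream of it by 100 bp, so an intronic site may still lie close to a start. The Intergenic class included 13 sites that the annotation marks as Intergenic (TTS), for which it gives no distance. For the other Intergenic sites, the annotated distance to the assigned gene was up to 2000 bp at 47. It was over 2000 to 5000 bp at 36 and over 5000 bp at 15, so this class is not remote from genes throughout. The other 1111 sites, 688 at single promoters and 423 at bidirectional promoters, served as the reference. The classes rest on annotation alone and not on any ChIP value.

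DRM joins 3 modules on chromatin. The heterodimer E2F-DP, made of EFL-1 and DPL-1, binds E2F-type DNA elements (CDE). The MuvB core, here followed through 4 subunits (LIN-54, LIN-52, LIN-37 and LIN-9), binds CHR elements through LIN-54, and the pocket protein LIN-35 bridges EFL-1 and LIN-52. The complex is best known for repressing cell cycle and germline genes from their promoters. Sites in introns, near gene ends and between genes are the less described share of its landscape.

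Late embryos of the *lin-35* null strain, *lin-35(n745)*, which makes no LIN-35 protein, were compared with wild-type (WT) N2 late embryos. Worms grew for 96 h (*lin-35* null) or 72 h (WT) before embryos were collected and aged for up to 3.5 h, and whole embryos were used, so that tissues cannot be told apart. The *lin-35* null lists cover the 6 E2F-DP and MuvB subunits with 18 ChIP libraries. The 7 WT lists, LIN-35 included, rest on 18 ChIP libraries described in the labels, of which 6 used the newer library protocol that all *lin-35* null libraries used, while the others came from an older, gel-selected protocol. The WT LIN-37 list combined 1 such library with libraries of an earlier study. Genotype and library protocol therefore cannot be fully told apart, and genotype and growth time cannot be told apart at all.

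Each of the 13 lists was called by the authors on all replicates together. There is thus 1 list per subunit and genotype, no replicate values and no statistical test below. By the authors' account, signal of 1 *lin-35* null replicate appeared abnormally high, and without it they found more DRM peaks significantly decreased. The *lin-35* null lists include that replicate, so a peak counted as left may rest on it. Peak height is given as a percentile within its own list, where 100 is the highest peak of that list, and a site takes the highest peak that overlaps it by at least 1 bp. The *lin-35* null lists held 783 to 1674 peaks of 550 to 630 bp, against 1771 to 2291 peaks of 290 to 584 bp in the WT lists. Intervals are 95% Wilson intervals over sites and cover counting error only. Sites share their libraries, and 8 of the 307 sites overlapped another DRM site, so sites are not independent replicates.

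The non-promoter sites were spread over all 6 chromosomes. Chromosome I held 75, II 46, III 70, IV 52, V 41 and X 23 of them. On chromosome X, 23 of the 53 DRM sites lay outside promoters (43.4%, interval 31.0 to 56.7%), against 21.7% (19.6 to 23.9%) over the genome. On the autosomes this share lay between 17.8% on II and 23.4% on I. The intronic sites had the nearest DRM neighbours. Of the 148 intronic sites, 36 (24.3%) started within 2000 bp of another DRM site and 28 of these had a promoter DRM site that close. The corresponding counts were 7 of 48 TTS sites and 14 of 111 Intergenic sites (12.6%), and 93 of 1111 promoter sites (8.37%). The annotation names 286 genes beside the 307 sites. RefSeq lists 275 of them as protein-coding and 10 as pseudogenes. A gene named below is the one the annotation assigns by position, not a gene shown to respond.

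In WT embryos, peaks outside promoters were lower than promoter peaks in each of the 7 lists. The mean percentile over the 7 lists had a median of 51.9 at non-promoter sites (quartiles 39 and 65.1, range 13.8 to 97.7), against 71.3 at promoter sites (48.9 and 85.8). The classes differed among themselves. TTS sites were the highest, with a median of 63.1, Intergenic sites followed with 54.5 and intronic sites were lowest with 47.6. The order-statistic intervals of these medians were 57.6 to 71.3 for TTS sites, 48.3 to 56.9 for Intergenic sites and 44.4 to 50.7 for intronic sites, so that the Intergenic and intronic medians are not separated. Few non-promoter sites reached the top of the lists. A mean percentile above 90 was found at 8 of 307 non-promoter sites (2.61%), against 196 of 1111 promoter sites (17.6%). The share with a mean percentile of 25 or less was 5.21% of non-promoter and 4.77% of promoter sites.

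**Figure D1:**
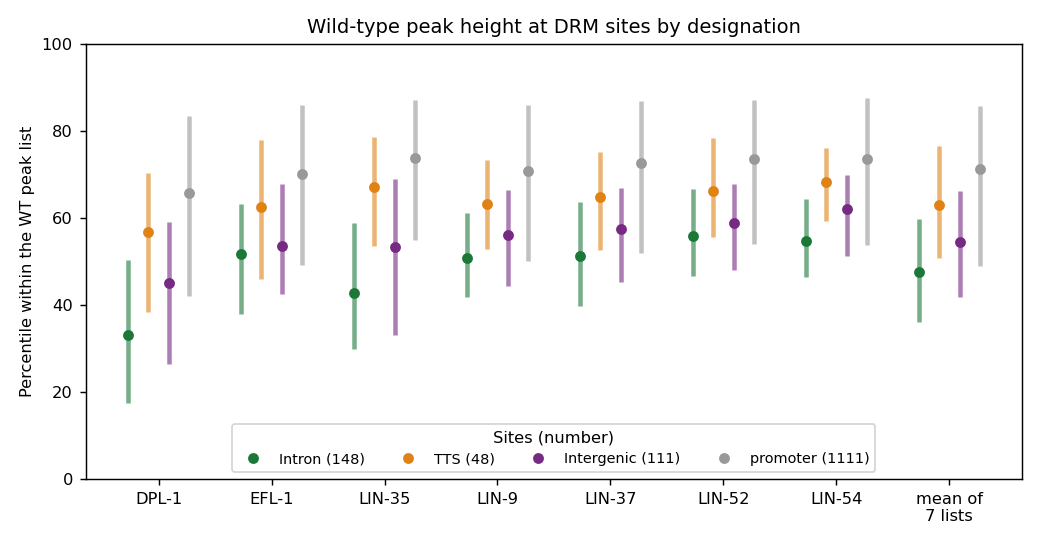
Wild-type peak height at Intron, TTS, Intergenic and promoter DRM sites, as the percentile within each WT peak list (0 to 100) and as the mean of the 7 lists. Points are medians over sites and vertical lines span the quartiles. In every list the promoter median is the highest, TTS sites come next, and the lowest point is DPL-1 at intronic sites (33.1).

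At intronic and Intergenic sites the gap to promoters was widest for DPL-1 and LIN-35. These gaps are in percentiles, which spread wider in a shorter list, and the DPL-1 list is the shortest in WT. At TTS sites the LIN-35 gap was smaller than those of 5 other subunits. The DPL-1 median was 33.1 at intronic, 56.8 at TTS and 45.2 at Intergenic sites, against 65.7 at promoters. The LIN-35 median was 42.8 at intronic, 67.2 at TTS and 53.3 at Intergenic sites, against 73.8 at promoters. For LIN-54, the DNA-binding subunit of MuvB, the values were 54.8, 68.3 and 62.2 for the same classes, against 73.7 at promoters. EFL-1, the E2F partner of DPL-1, had medians of 51.8, 62.6 and 53.6, against 70.1 at promoters. At intronic sites 58 of 148 DPL-1 peaks (39.2%) had a percentile of 25 or less, against 125 of 1111 promoter sites (11.3%).

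The imbalance also appeared within single sites. The mean E2F-DP percentile was below the mean MuvB percentile of the same site at 258 of 307 non-promoter sites (84.0%), with a median difference of -8.28 percentile points. At promoters this held for 766 of 1111 sites (68.9%), with a median difference of -2.88. LIN-35 was below MuvB at 193 non-promoter sites (62.9%, median difference -3.27), against 467 promoter sites (42.0%, median 0.922). Intronic sites led in both measures, with E2F-DP below MuvB at 134 of 148 sites and LIN-35 below MuvB at 106. At TTS sites LIN-35 was below MuvB at 23 of 48 sites, with a median difference of 0.232, close to the promoter value. Among the 298 non-promoter sites with peaks in all 7 lists, DPL-1 had the lowest percentile at 179 (60.1%) and the highest at 0, and LIN-54 had the highest at 98 (32.9%). The spread between the highest and lowest subunit had a median of 28.2 points at intronic, 13.5 at TTS and 20.8 at Intergenic sites, against 12.0 at promoters. The DPL-1 list is the shortest WT list. This lowers the percentile of a peak at a given rank from the top, and lowers it more for low peaks. List length can therefore also widen the differences in DPL-1 and E2F-DP between classes. Its share in them was not tested.

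In *lin-35* null embryos, most non-promoter sites had no peak of a given subunit. LIN-9 was left at 124 of 307 sites (40.4%, interval 35.1 to 46.0%), against 70.0% of all DRM sites. LIN-52, the MuvB subunit that contacts LIN-35, was left at 111 (36.2%, against 65.7%). DPL-1 was left at 109 (35.5%, against 56.6%), LIN-54 at 97 (31.6%, against 62.6%), EFL-1 at 84 (27.4%, against 46.9%) and LIN-37 at 67 (21.8%, against 52%). The shares are below those of all DRM sites for each of the 6 subunits. The order of subunits also differed from that at promoters. LIN-37 had the smallest share outside promoters, but its interval (17.6 to 26.8%) overlaps that of EFL-1 (22.7 to 32.6%). At promoters EFL-1 had the smallest share (52.3%, against 60.4% for LIN-37).

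**Figure D2:**
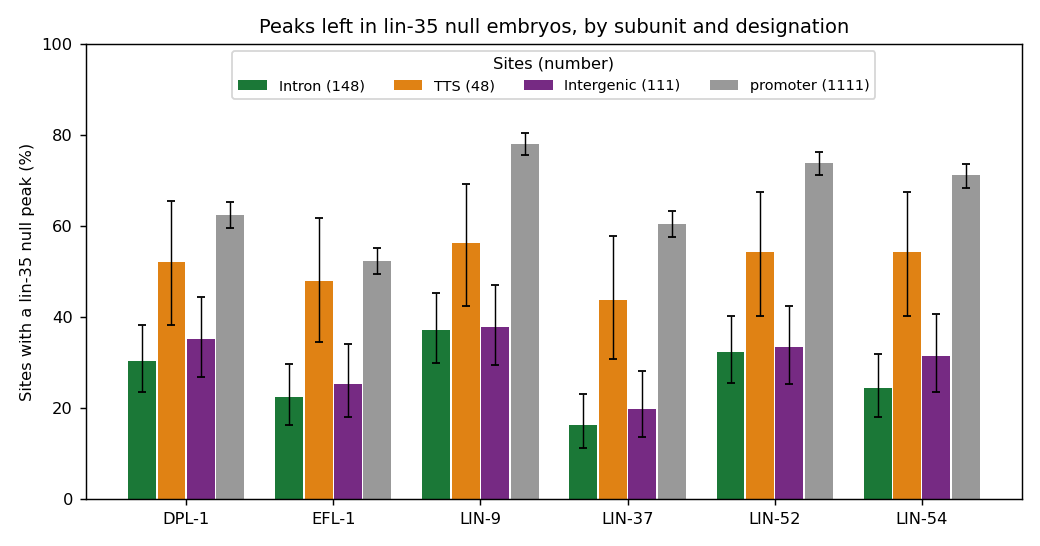
Share of DRM sites (percent) with a *lin-35* null peak of each of 6 subunits, for Intron, TTS, Intergenic and promoter sites. Bars show the share and error bars the 95% Wilson interval over sites. TTS bars lie between 43.8% (LIN-37) and 56.2% (LIN-9), above the intronic and Intergenic bars of each subunit.

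TTS sites kept more peaks than the other non-promoter classes. They were also the highest of these classes in WT, and a comparison at like height follows below. LIN-9 was left at 27 of 48 TTS sites (56.2%), 55 of 148 intronic sites (37.2%) and 42 of 111 Intergenic sites (37.8%), against 868 of 1111 promoter sites (78.1%). LIN-54 was left at 26 TTS sites (54.2%), 36 intronic sites (24.3%) and 35 Intergenic sites (31.5%), against 790 promoter sites (71.1%). For EFL-1 the TTS share came close to the promoter share, with 23 of 48 sites (47.9%, interval 34.5 to 61.7%), against 581 promoter sites (52.3%, 49.4 to 55.2%). With 48 TTS sites the intervals are wide, and for 4 of the 6 subunits they overlap those of the Intergenic sites. EFL-1 and LIN-37 are the exceptions, with Intergenic intervals of 18.1 to 34.0% and 13.5 to 28.2%, below the TTS intervals of 34.5 to 61.7% and 30.7 to 57.7%.

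Counted per site, 169 of the 307 non-promoter sites (55.0%, interval 49.5 to 60.5%) had no *lin-35* null peak of any of the 6 subunits, against 26.7% of all DRM sites and 18.8% of promoter sites. All 6 subunits were left at 57 sites (18.6%), against 40.6% of all DRM sites. A retained site is defined here as one with DPL-1, EFL-1 and 3 or more of the 4 MuvB proteins left. By that definition 72 non-promoter sites were retained (23.5%, 19.1 to 28.5%), against 43.4% of all DRM sites and 49.0% of promoter sites (46.0 to 51.9%). The retained share was 41.7% at TTS sites (20 of 48, 28.8 to 55.7%), 21.6% at Intergenic sites (24 of 111, 15.0 to 30.2%) and 18.9% at intronic sites (28 of 148, 13.4 to 26.0%). The TTS interval does not overlap that of intronic sites and includes the promoter value. With the bottom 25% of the peaks in every list dropped, the TTS share was 27.1% (16.6 to 41.0%) and the intronic share 16.2% (11.1 to 23%), and these intervals overlap.

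**Figure D3:**
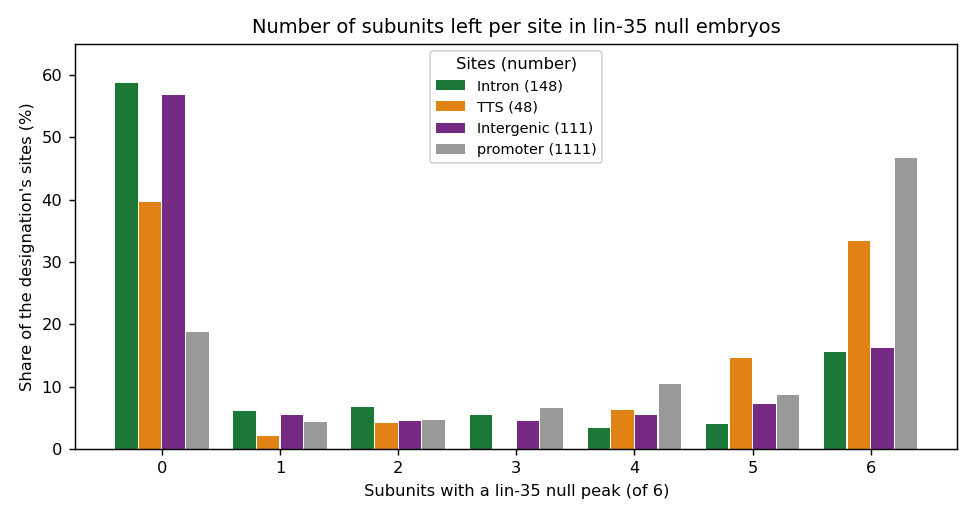
Number of subunits (0 to 6) with a *lin-35* null peak at each site, as a percentage of the Intron, TTS, Intergenic or promoter sites. Sites fall mostly at 0 or at 6: 58.8% of intronic sites have none left and 15.5% all 6, against 18.8% and 46.7% of promoter sites.

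Between these extremes, 81 non-promoter sites (26.4%) had 1 to 5 subunits left. The most frequent partial set was every subunit but LIN-37, at 15 sites (4.89%), against 24 promoter sites (2.16%). LIN-9 alone was left at 10 sites, and LIN-9 with LIN-52 at 7. The LIN-9 and LIN-52 lists are the longest null lists (1674 and 1388 peaks). Those of EFL-1 and LIN-37 are the shortest (783 and 927). Whether the partial sets go beyond list length was not tested. The set that lacked EFL-1 alone, which was left at 69 promoter sites (6.21%), was found at 6 non-promoter sites (1.95%). At least 3 MuvB subunits without either E2F-DP subunit were left at 9 non-promoter sites (2.93%, 1.55 to 5.48%), against 9.80% of all DRM sites and 11.7% of promoter sites (9.94 to 13.7%). These 9 were beside Y47H9C.12, *pry-1*, *jip-1*, H17B01.1, *ztf-27*, Y53G8AR.2, C14B1.6, *kin-19* and Y65A5A.2, and are named because they are few, after their values were seen.

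Because non-promoter peaks were lower in WT, the sites were also compared at like height. All 1418 sites were put into 4 groups of equal size by mean WT percentile, with borders near 45.2, 65.8 and 83.2. The non-promoter sites were distributed as 112, 121, 54 and 20 over these groups, lowest first. The retained share outside promoters was 8.93%, 17.4%, 50.0% and 70.0% over the 4 groups, against 14.8%, 26.6%, 53.7% and 85.1% at promoters. The share was the lower one outside promoters in every group, and the intervals of both kinds of site overlap in each. The intervals outside promoters are wide, with 20 sites in the highest group, so their overlap does not show that the shares are alike. Promoter sites weighted to the heights of the non-promoter sites had a retained share of 30.9%, so the difference of 23.5% against 49.0% narrowed to 23.5% against 30.9%. By class, promoter sites weighted to the heights of TTS sites had 40.4%, against 41.7% at TTS sites. The weighted promoter share was 31.2% for Intergenic heights, against 21.6%, and 27.5% for intronic heights, against 18.9%. How far height accounts for the TTS share was not tested.

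The share with no subunit left stayed apart in the lower height groups. It was 71.4% (interval 62.5 to 79.0%) and 59.5% (50.6 to 67.8%) of non-promoter sites in the first and second groups, against 28.4% (23.1 to 34.4%) and 36.1% (30.2 to 42.4%) of promoter sites. In the third group it was 27.8% (17.6 to 40.9%), against 16.7% (12.9 to 21.3%), where the intervals overlap, and in the highest group 2 of 20 sites, against 6 of 335. Weighted to the same heights, promoter sites with none left came to 27.6%, against 55.0% of non-promoter sites. By class the weighted promoter share was 23.7% for TTS heights, against 39.6% at TTS sites. It was 28.1% for Intergenic heights, against 56.8%, and 28.5% for intronic heights, against 58.8%. The lowest group also held the contrast in MuvB without E2F-DP, with 2 of 112 non-promoter sites (1.79%), against 64 of 243 promoter sites (26.3%). Low sites at promoters thus kept part of the complex more often than low sites elsewhere. The groups matched height alone. They were not split by high occupancy target (HOT) regions, described below, which cover 35.5% of promoter and 10.1% of non-promoter sites. With both kinds at low WT height, the mean number of subunits left was 0.946 outside promoters and 2.72 at promoters.

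**Figure D4:**
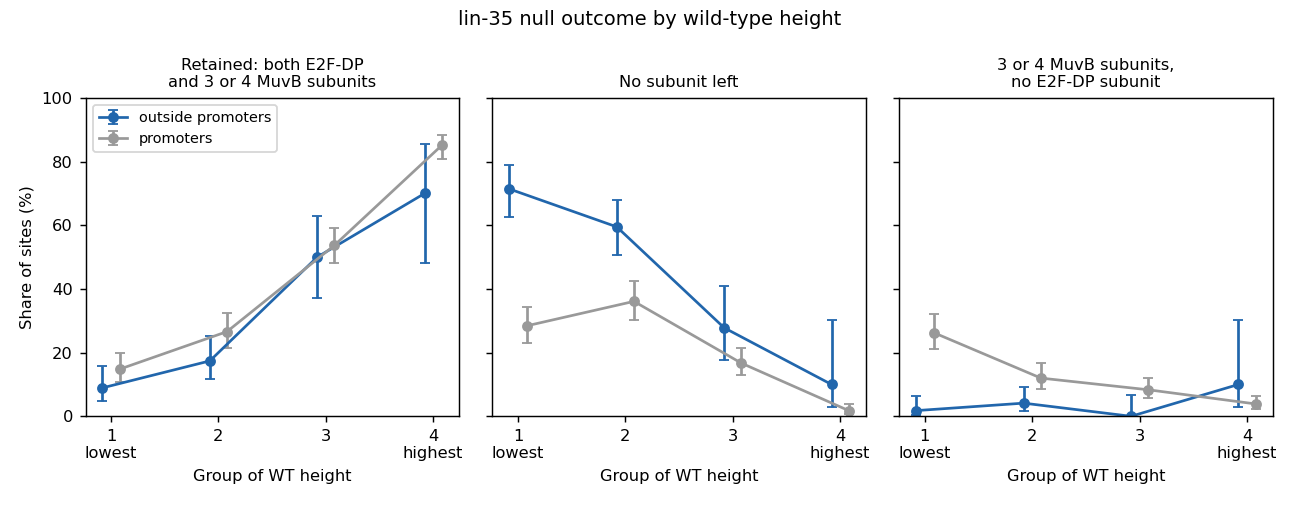
Share of sites (percent) outside promoters and at promoters that were retained, had no subunit left, or had MuvB without E2F-DP in *lin-35* null embryos, over 4 groups of WT height, lowest to highest. Error bars are 95% Wilson intervals. The retained share is lower outside promoters in each group, with overlapping intervals. No subunit was left at 71.4% of the lowest non-promoter sites, against 28.4% of the lowest promoter sites.

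Within the non-promoter sites, retained sites were the higher ones in WT. Their mean WT percentile had a median of 68.1 (quartiles 56.6 and 80.2), against 46.3 (35.9 and 57.4) at sites with none left. The quartile ranges overlap slightly and the full ranges overlap widely, with 21.8 to 97.7 at retained sites and 13.9 to 89.1 at sites with none left. Among the WT lists, DPL-1 had the largest percentile gap. Its median was 63.2 at retained sites, against 33.4 at sites with none left. The DPL-1 list is also the shortest (1771 peaks), which widens its percentile gaps. For LIN-35, the longest list (2291 peaks), the medians were 68.9 and 45.5. For LIN-54 the medians were 71.3 and 55.6. Sites with a low LIN-35 peak in WT can be set beside these. Of the 43 non-promoter sites whose LIN-35 percentile was 25 or less, 4 were retained (9.30%) and 27 had none left (62.8%), against 3 and 15 of 32 promoter sites.

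The 57 non-promoter sites with all 6 subunits left sat lower in the *lin-35* null lists than promoter sites of the same kind. Their mean *lin-35* null percentile had a median of 60.0, against 72.2 at 519 promoter sites. Their mean WT percentile over the same 6 subunits had a median of 68.3, against 84.7 at promoters. The median change in rank, *lin-35* null minus WT, was -5.70 points outside promoters and -5.94 at promoters, and the rank was higher in the null at 20 of 57 and at 165 of 519 sites. By class the change was -0.710 at 16 TTS sites, -10.1 at 23 intronic sites and -10.2 at 18 Intergenic sites. A percentile in a *lin-35* null list refers to fewer peaks than one in a WT list, so these changes are shifts in rank and not in the amount bound.

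**Figure D5:**
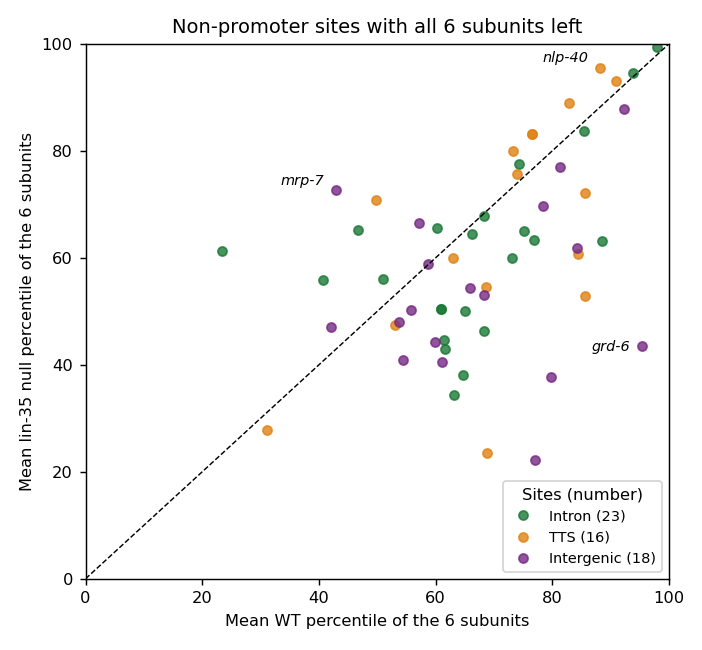
Mean *lin-35* null percentile against mean WT percentile of the 6 subunits at the 57 non-promoter sites with all 6 subunits left, coloured by Intron, TTS or Intergenic. The dashed line marks equal rank. *grd-6* lies far below it (43.6 in the null lists) and *mrp-7* far above it (72.7).

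The motif marks of the study's site table differed between the kinds of site. A *de novo* DRM motif, which resembles a joined CDE and CHR and was found in these same 1418 regions, was marked at 168 of 307 non-promoter sites (54.7%), against 551 of 1111 promoter sites (49.6%). A conserved CDE was marked at 62 (20.2%), against 598 (53.8%), and a conserved CHR at 127 (41.4%), against 771 (69.4%). By class, conserved CHR marks were found at 49.3% of intronic, 37.5% of TTS and 32.4% of Intergenic sites. At least 1 of the 3 marks was present at 215 non-promoter sites (70.0%), against 978 promoter sites (88.0%). The CDE and CHR marks count only motifs conserved between species. Embryonic high occupancy target (HOT) regions, where many unrelated factors were mapped together, covered 31 non-promoter sites (10.1%), against 394 promoter sites (35.5%). HOT marks were found at 5 of 148 intronic, 11 of 48 TTS and 15 of 111 Intergenic sites.

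The *de novo* mark went with higher WT peaks at promoters and hardly so elsewhere. The median WT percentile was 53.5 at marked and 51.1 at unmarked non-promoter sites, against 81.2 and 58.1 at promoters. Marked non-promoter sites were retained at 36 of 168 (21.4%) and unmarked ones at 36 of 139 (25.9%), whereas 55.0% of marked and 43.0% of unmarked promoter sites were retained. In the lowest group of WT height, 0 of 59 marked non-promoter sites were retained, against 10 of 53 unmarked sites. The next groups did not repeat this, with 10 of 63 marked sites, against 11 of 58 unmarked sites, in the second group and 15 of 29, against 12 of 25, in the third. In the highest group 11 of 17 marked and 3 of 3 unmarked sites were retained. The 10 unmarked sites of the lowest group were beside *abt-5*, Y48A6C.6, Y66D12A.19, Y75B8A.23, C34D4.1, Y116A8C.43, Y50D4A.1, *mrp-7*, *mom-1* and W04G3.11, and were looked up after the count was seen. HOT sites outside promoters had none left at 11 of 31 (35.5%) and other non-promoter sites at 158 of 276 (57.2%). At promoters the shares were 6.35% of HOT sites and 25.7% of other sites. By the retained measure the non-promoter shares were closer, with 29.0% of HOT and 22.8% of other sites. In the lowest height group 2 of 9 HOT sites were retained, against 8 of 103 others. The higher groups ran the other way, with 1 of 8, 2 of 7 and 4 of 7, against 20 of 113, 25 of 47 and 10 of 13.

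Peak middles of the subunits lay about as close together at non-promoter sites as at promoters. The middles of the WT peaks of all lists at a site spanned a median of 23 bp (quartiles 14 and 37), against 22 bp (12 and 33) at promoter sites. DPL-1 and LIN-54 middles lay a median of 5 bp apart in both kinds of site. *lin-35* null middles lay close to WT middles, a median of 8 bp for EFL-1, 9 bp for DPL-1, 11 bp for LIN-54, 13 bp for LIN-52, 14 bp for LIN-37 and 17 bp for LIN-9 outside promoters. The longest shift was 487 bp, for LIN-9, so a peak counted in the null can be another one that reaches into the site.

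Among intronic sites, F56D5.6 had the highest WT peaks (IV: 9403717 to 9404216, ce10). In the *lin-35* null lists DPL-1 ranked 99.3 and EFL-1 99.0 there, and LIN-9 ranked 99.6, LIN-37 99.4, LIN-52 99.4 and LIN-54 99.5. In the WT lists DPL-1 ranked 97.0, EFL-1 97.8 and LIN-35 96.8, and LIN-9 ranked 98.5, LIN-37 98.0, LIN-52 98.6 and LIN-54 97.5. The site was thus at the top of the lists of both genotypes. The *wht-3* site (III: 4150751 to 4151250), in a gene for a White-type ABC transporter, came next. It ranked 91.8 for DPL-1, 90.5 for EFL-1 and between 94.6 and 97.4 for the 4 MuvB subunits in the null, against 89.8, 92.6 and 93.9 to 96.5 in WT. The site in *set-18*, a SET-domain methyltransferase gene (I: 10591500 to 10591999), kept 78.4 to 91.2 in the null over the 6 subunits, against 82.5 to 88.8 in WT.

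Other intronic sites of like WT height did not keep these ranks. At Y65A5A.2 (IV: 16415027 to 16415526) no DPL-1, EFL-1 or LIN-37 peak was left, and LIN-9, LIN-52 and LIN-54 ranked 50.5, 22.0 and 45.6 in the null, against 91.0, 87.7 and 93.8 in WT. At H32K16.1, now named *slc-36.4* (I: 9150127 to 9150626), LIN-37 was absent and the other 5 subunits ranked 42.9 to 75.4 in the null, against 85.7 to 93.5 in WT. At F26G1.1 (II: 4791192 to 4791691) nothing was left in the null, although the WT percentiles ran from 85.7 for LIN-37 to 94.9 for EFL-1 and all 3 motif marks were present. The T22F3.3 site (V: 3579679 to 3580178), in the gene now named *pygl-1*, also had none left, with WT percentiles of 73.0 for DPL-1 to 85.0 for EFL-1. F26G1.1 (mean WT percentile 89.1) thus stood above *set-18* (85.9) in WT, with no peak in the null.

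The highest TTS site was at F40E3.3 (I: 2639503 to 2640002). In the null DPL-1 ranked 92.0, EFL-1 85.6, LIN-9 96.3, LIN-37 93.4, LIN-52 95.4 and LIN-54 95.3. In WT DPL-1 ranked 88.1, EFL-1 88.2, LIN-35 89.2, LIN-9 93.1, LIN-37 89.9, LIN-52 91.5 and LIN-54 94.5. The site near the end of *nlp-40*, a neuropeptide-like protein gene (I: 16780 to 17279), had 93.4 to 97.3 in the null, against 85.0 to 90.0 for the same 6 subunits in WT, and ranked higher in the null for every one of them. Both lie in HOT regions. The *vab-19* site (II: 2450962 to 2451461), in no HOT region and by a gene for an ankyrin-repeat protein of epidermal attachments, had 86.4 to 93.0 in the null, against 76.1 to 88.9 in WT.

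The next highest TTS sites lost rank or subunits. H05C05.3 (III: 2966498 to 2966997) lacked EFL-1 in the null and ranked 53.0 for LIN-37 to 78.4 for LIN-9, against 82.1 and 86.6 for the same subunits in WT. Y66D12A.6 (III: 11580369 to 11580868) lacked LIN-37 and ranked 8.56 for EFL-1 and 55.4 for LIN-9 in the null, against 95.3 and 83.2 in WT. T28F4.1 (I: 7472311 to 7472810) had no peak left, with 77.6 for DPL-1 to 90.0 for EFL-1 in WT. It is 1 of 2 HOT sites of the TTS class with none left. The site at *col-61*, a collagen gene (I: 7201569 to 7202068), had none left either and ranked 59.7 to 71.9 in WT.

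The highest Intergenic site lay nearest to *grd-6*, which encodes a hedgehog-related protein (V: 9220385 to 9220884). All 6 subunits were left, but DPL-1 ranked 43.9, EFL-1 29.0, LIN-9 60.3, LIN-37 25.8, LIN-52 54.5 and LIN-54 48.2 in the null. In WT DPL-1 ranked 94.5, EFL-1 92.7, LIN-35 94.8, LIN-9 96.0, LIN-37 96.7, LIN-52 96.0 and LIN-54 96.9. The *kin-19* site (III: 4087512 to 4088011), by the gene for a casein kinase I alpha of the Wnt pathway, had no DPL-1 or EFL-1 peak in the null. The 4 MuvB subunits there ranked 23.4 to 45.7 in the null, against 94.2 to 97.0 in WT, where DPL-1 was at 95.4 and EFL-1 at 93.2. Both sites ranked above 90 in every WT list and in the middle or lower part of the null lists.

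F53E10.5 (V: 2600483 to 2600982) kept its place, with 83.6 to 90.9 in the null, against 89.6 to 94.1 in WT for the 6 subunits, and carried none of the 3 motif marks. D1065.3 (V: 4063447 to 4063946) was also unmarked and ranked 67.8 to 84.9 in the null, against 76.6 to 84.4 in WT. At *hum-1*, an unconventional myosin gene (I: 8852115 to 8852614), the modules parted in rank. DPL-1 and EFL-1 had 86.3 and 81.0 in the null, against 82.8 and 82.2 in WT, while LIN-37 had 25.1, against 84.7, and LIN-54 had 55.1, against 85.2. At *mrp-7*, an ABC transporter gene (V: 19673211 to 19673710), every subunit ranked higher in the null, with EFL-1 lowest (52.6) and LIN-9 highest (87.0), against 25.5 (DPL-1) to 54.6 (LIN-52) in WT. No peak was left at the site of *atg-2*, an autophagy gene (X: 6804802 to 6805301, 75.3 to 89.1 in WT).

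DPL-1 and EFL-1 peaks with no MuvB peak were left at 4 non-promoter sites (1.30%, 0.508 to 3.30%), against 10 promoter sites (0.900%). All of these peaks ranked below 50 in the null lists. At Y105E8A.25, now *rhgf-3* (I: 14594341 to 14594840), DPL-1 and EFL-1 ranked 11.2 and 5.11 in the null, against 25.7 and 63.9 in WT. At T21B4.4 (II: 12499862 to 12500361) they ranked 4.32 and 15.2, against 50.3 and 35.8. At the TTS site of F56C3.9 (X: 1391015 to 1391514) they ranked 44.2 and 22.9, against 50.3 and 55.5. At the Intergenic site of F21G4.4 (X: 9900693 to 9901192) they ranked 30.2 and 4.60, against 32.1 and 42.0. The WT MuvB percentiles at these 4 sites lay between 37.3 and 64.3.

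Of the 286 genes, 19 had at least 2 non-promoter sites and 3 genes had 3. The 3 TTS sites of *zig-7*, a secreted immunoglobulin-domain protein gene on I, all kept the 6 subunits. The first and second, 4788364 to 4788863 and 4788732 to 4789231, overlap and took their values from the same peaks, with 68.2 to 93.0 in the null, against 70.0 to 83.4 in WT. The third, 4789797 to 4790296, ranked 7.92 for EFL-1 and 50.6 to 69.7 for the other subunits in the null, against 82.8 and 82.6 to 88.5 in WT. The intronic sites of *taf-6.1*, a TFIID subunit gene on II, kept little. The site from 1130177 to 1130676 had none left. Those from 1131104 to 1131603 and from 1131492 to 1131991 overlap, share their peaks, and kept LIN-9 at 14.9 and LIN-52 at 12.4, against 52.7 and 62.3 in WT. The 3 intronic sites of *jip-1*, a JNK scaffold gene on II, lay at 1330535 to 1331034, 1346222 to 1346721 and 1346846 to 1347345. The middle one kept LIN-9, LIN-52 and LIN-54 at 14.3, 19.8 and 3.59, against 59.3, 64.6 and 60.3 in WT, and the others kept none.

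For 40 genes the annotation named both a non-promoter and a promoter site. Taking the highest site of each kind, the non-promoter site was the higher one in WT for 13 genes and the promoter site for 27. More subunits were left at the non-promoter site for 6 genes, more at the promoter site for 17, and the number was the same for 17, of which 9 had none at either and 6 had all 6 at both. At *rsa-2*, a spindle gene, the intronic site had 0 subunits left and a mean WT percentile of 33.8, against 6 and 94.9 at its promoter. At *abce-1* the non-promoter site had 6 left at 69.6, against 4 left at 25.8 at its promoter. These 2 genes were chosen after their values were seen, as examples of each direction.

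The genes beside the sites were read by 8 groups of known function, each set against the 307 sites, of which 23.5% were retained and 55.0% had none left. Of 8 sites at cell cycle and division genes, 1 was retained and 6 had none left. The retained site was in *cdk-2*, a cyclin-dependent kinase gene, with 49.0 to 73.8 in the null, against 69.1 to 83.3 in WT for the 6 subunits. The *lin-9* site, near the end of the gene for the MuvB subunit itself, kept all subunits but EFL-1. No peak was left at *cki-1* (a CDK inhibitor), *cdc-25.2* (a phosphatase that activates CDKs), *such-1* (an anaphase promoting complex subunit), *czw-1* (a kinetochore protein), *rsa-2* or *mau-2* (a cohesin loader). Their mean WT percentiles were 45.3, 64, 41.0, 30.4, 33.8 and 54.5.

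Of 5 sites at 4 DNA repair genes, the *exo-3* site (an AP endonuclease) kept all 6 subunits, with 47.4 to 81.8 in the null, against 32.7 to 68.3 in WT. Both *xpc-1* sites (nucleotide excision repair), and those of *fcd-2* (the FANCD2 homologue) and *pme-3* (now *parg-1*), had none. Among 8 sites of RNA surveillance and silencing genes, 1 was retained and 6 had none left. The retained site was *smg-3* of nonsense-mediated decay, with 57.7 to 81.1 in the null, against 58.8 to 73.1 in WT. *smg-2*, of the same pathway, had a like mean WT percentile (68.2, against 67.9 for *smg-3*) and none left, and *smg-6* had none. *pup-2* kept 4 subunits, and *eri-3*, *cid-1*, *glh-4* and *rnp-8* kept 0.

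Of 10 sites at chromatin and transcription genes, only that of *set-18* was retained and 7 had none, among them *cbp-1* (a CBP/p300 acetyltransferase), *hda-6* (a histone deacetylase, now *hda-10*), *mbtr-1*, *gfl-1*, *ell-1*, 1 of the *taf-6.1* sites, and 1 Intergenic site assigned to both *lin-59* and *glh-4*. Of 9 sites at Wnt, Notch and Ras signalling genes, 4 were retained, 2 kept MuvB without E2F-DP (*kin-19* and *pry-1*, an Axin) and 3 had none (*src-1*, *sel-8* and *lin-2*). The retained ones were *wrm-1* (a beta-catenin), *mom-1* (Porcupine) and both sites of the GTPase gene *ral-1*. *wrm-1* ranked 56.6 to 76.8 in the null, against 73.9 to 82.3 in WT for the 6 subunits. At *mom-1*, LIN-35 was at 3.27, LIN-54 had no peak and EFL-1 was at 88.5 in WT, while EFL-1 was at 80.8 and LIN-54 at 37.2 in the null. This site lies in a HOT region.

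The caspase gene *ced-3* kept 5 subunits, with 43.4 for DPL-1 and 7.64 for LIN-52 in the null, against 81.6 and 77.5 in WT. *ced-7*, of corpse engulfment, kept none at a mean WT percentile of 69.4. Neuronal signalling genes had 20 sites, of which 2 were retained, 7 were partly left and 12 had none, where the partly left ones include 1 of the retained. The retained ones were *nlp-40* and *goa-1*, a G protein alpha subunit gene with 5 subunits left. *rgs-7* kept 4 subunits, *jip-1* kept 3 at 1 of its sites, *gpa-9* and *pde-2* kept 2, and *snf-6* kept 1 at 1 of its sites, as did *unc-101* at its only site. *unc-64* (syntaxin), *gpb-1*, *egl-8*, *egl-4*, *dgk-2*, *plc-4*, *flp-9*, *gcy-28* and *tir-1* had none, with mean WT percentiles between 22.0 (*flp-9*) and 63.8 (*gcy-28*). Of the 8 sites at chemoreceptor genes, *srw-39* kept 6 subunits at 1 site and 0 at the other, which started 871 bp away, *srh-210* kept 5, and those of *sre-23*, *srbc-58*, *srg-66* and *srd-71* kept none. These groups are small, from 2 to 20 sites, and their shares were not tested against the other sites.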

How the data were processed

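Late embryo ChIP-seq of 7 DRM subunits was used as 13 deposited peak lists. Per the labels and the methods, the authors aligned reads with bowtie 1.1.2 to build ce10 (at most 2 reported alignments), called peaks against input with SPP, and kept those reproducible at an IDR of 1% over all replicates. The deposited peak signal (column 7) was the value used. Each list has 1 peak width with the summit at the middle. Input and library depths are not in the lists and were not used here. Site regions, designations, motif and HOT marks and gene names came from the study's tables of DRM sites and target genes. Its own comparison columns (fold changes, adjusted p-values, classes) were not used. Per-sample columns of other series numbered 0.

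Signals were converted to percentiles within each list (100 × rank / number of peaks). A peak counted at an overlap of at least 1 bp. Sites without a peak in a list were left out of that list's medians. Python 3.11.15, pandas 2.3.3, scipy 1.17.1 and matplotlib 3.10.9 were used, and the overlap code was tested on simulated data. Gene names were matched for 274 of 286 genes in a table of WormBase IDs, and biotypes for 285 in RefSeq. Sites were named by rule for each designation: the 4 highest in WT, the 3 highest in the null with 6 subunits left and the 2 highest in WT with none left. In addition, sites with E2F-DP and no MuvB, genes with 3 sites and the genes of the 8 groups were named. A site that met this rule is not reported here. Members, rules and gene groups were chosen with earlier results of these data known. Intervals carry 95% confidence.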

Additional observations from a re-analysis of the deposited data

How the results depend on the processing

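No paired analysis was possible because each subunit and genotype has 1 pooled list, and for the same reason no replicate could be left out. Most of the values that moved did so on dropping peaks in the bottom 25% by score. The shares of non-promoter sites with a *lin-35* null peak were then 24.4% (DPL-1), 19.5% (EFL-1), 31.9% (that of LIN-9), 26.7% (LIN-52), 24.8% (LIN-54) and 17.3% (LIN-37). The retained share was 16.9%, that with no subunit left 65.8%, and the median WT percentile 37.6, by construction since fewer peaks remained. MuvB without E2F-DP was then at 14.6% of TTS sites (4.17% with all peaks), 0.676% of intronic sites (3.38%) and 3.60% of Intergenic sites (1.80%). The retained share was 27.1% at TTS, 16.2% at intronic and 13.5% at Intergenic sites, against 40.5% at promoters. Requiring all 6 subunits gave 18.6% and any 1 subunit 45.0%. The WT lists of the 6 subunits were also cut to the length of their null lists, with the LIN-35 list left whole. The median WT percentile, averaged over the lists that still had a peak, was then 31.9 outside promoters, against 49.5 at promoters. With LIN-35 percentile as height, the weighted promoter retained share was 28.1%. Overlap of 50%, summits inside the site, peaks set to 200 bp and omission of close, HOT or X sites kept the retained share of non-promoter sites between 22.1% and 24.6%, but without HOT sites the promoter share was 41.6%, against 49.0% with them. Leaving out LIN-37 and requiring every other subunit, chosen after seeing the data, gave 23.5%. This counts the 57 sites with all 6 subunits left and the 15 that lacked LIN-37 alone. The value thus follows from the sets given above and is no separate check. The middle of a peak and its summit are the same base, so that alternative was void. Read depth at single sites was not analysed here, so a site without a peak may hold binding below the threshold of its list.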
